A study of Mus musculus with 10 samples.

Results

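The cytosolic ribosomal protein genes are described here in 10 mouse bladder tumors. Members were the rows of the deposited table whose gene symbol has the form of a large subunit (Rpl), small subunit (Rps) or stalk (Rplp) protein and whose mean was at least 10 normalized counts, and 81 of the 24202 rows met this, 49 of the large subunit and stalk and 32 of the small subunit. The pattern matched 82 symbols. Rpl39l, at a mean of 3.87 normalized counts, fell below the minimum, and the lowest members were Rpl3l at 11.3 and Rpl32l at 13.6. The pattern leaves out genes such as Rps3a1, Fau and Rack1, whose proteins also belong to or sit on the ribosome, and these are given separately. In GENCODE M21, 3 members are annotated as pseudogenes (Rpl6l, Rpl32l and Rps4l).

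MB-49 is a mouse bladder cancer line, and 100000 cells were injected subcutaneously in the right flank of mice with a knocked-in human LRRC32 gene (hLrrc32). LRRC32 encodes GARP, a surface receptor for latent TGF-beta. In 5 tumors the mice had received PIIO-1, an antibody to GARP, (200 ug per mouse, intraperitoneal, on days 6 and 9), and 5 tumors came from mice given PBS; all were collected on day 10, and both groups carry the knock-in. Each library is bulk RNA of a whole tumor, so fewer cells of a type and less RNA per cell cannot be told apart. Separate animals are not stated in the labels for the tumors, so p-values measure only the spread between these samples. Libraries held 18843192 to 37581521 reads in genes. The epithelial keratins Krt8 and Krt18 and the mesenchymal filament Vim were abundant in every tumor, while the urothelial genes Upk1b and Upk2 and the basal keratin Krt5 were low. The epithelial marker Epcam was low too, at a mean of 20.9 normalized counts, and the keratin Krt7 averaged 219.

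Cytosolic ribosomes are built from a small subunit that reads the mRNA and a large subunit that joins amino acids, each a scaffold of ribosomal RNA with many small proteins. Most ribosomal protein mRNAs begin with a cytosine followed by a run of pyrimidines, the 5′ terminal oligopyrimidine (TOP) motif, through which mTORC1 and Larp1 adjust their translation together. These genes are among the most highly transcribed in dividing cells, and their mRNA levels are known to be held close together.

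Promoters were read for a run of C and T at or beside the transcription start, which some members have there and others do not. RefSeq promoters (GRCm38.p6, 250 bases before to 50 after the start) were found for 59 of the 81 members, 71 promoters in all. The windows below span the 40 bases before the start and 20 from it, 5′ to 3′ on the gene's strand, with the longest pyrimidine run touching the start in capitals. Of the 7 windows, 4 were picked to show a long run and 3 (Rpl11, Rps28 and Rpl24) a short one.
Rpl7a: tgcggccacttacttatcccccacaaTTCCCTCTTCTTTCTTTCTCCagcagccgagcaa
Rpl38: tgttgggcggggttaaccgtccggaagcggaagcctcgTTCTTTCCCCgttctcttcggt
Rps6: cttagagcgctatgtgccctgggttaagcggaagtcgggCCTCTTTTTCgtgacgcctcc
Rplp2: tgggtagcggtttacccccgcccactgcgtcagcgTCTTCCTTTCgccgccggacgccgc
Rpl11: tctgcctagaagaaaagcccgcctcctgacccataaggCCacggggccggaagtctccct
Rps28: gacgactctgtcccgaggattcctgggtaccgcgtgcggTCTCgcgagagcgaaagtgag
Rpl24: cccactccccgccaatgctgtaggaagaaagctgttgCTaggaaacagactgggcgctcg

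In order, these windows lie at chr2:26910767-26910826 (plus), chr11:114668540-114668599 (plus), chr4:86857348-86857407 (minus), chr7:141447611-141447670 (plus), chr4:136053374-136053433 (minus), chr17:33824543-33824602 (minus) and chr16:55966235-55966294 (plus). A run of at least 8 pyrimidines touching the bases from 2 before the start to the fifth base was present in 31.0% of the members' promoters and in 7.62% of all 32851 promoters of the same length. A run of at least 5 was present in 43.7% against 26.0%, and the median run was 4 bases in the members' promoters and 3 in all. The start base was C in 29.6% of the members' promoters and in 16.3% of all. Searched on both strands, the ETS letters CCGGAAG were found in 35.2% of the members' promoters against 8.86% of all, the YY1 letters AAGATGG in 15.5% against 6.34%, and the SP1 letters GGGCGG in 57.7% against 35.7%. The TATA letters TATAAA stood in 9.86% against 13.6%, and the E-box CACGTG in 11.3% against 7.15%. The letters searched do not contain one another. These shares are descriptions of letters, and the annotated start may differ from the start used in these tumors.

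Together the members held between 4.93% and 5.75% of all normalized counts in a tumor. Of 81 members, 73 averaged 5000 normalized counts or more, from 6521 for Rps28 to 72827 for Rplp0. The median member stood at 23759 normalized counts per kb of annotated transcript. Highest per kb was Rplp1 at 84297, a protein of the acidic stalk that recruits translation factors. It was followed by Rpl13 at 58432, by Rplp0, the base of the stalk, at 53628 and by Rpl41, the smallest ribosomal protein, at 53098. Per kb, Rplp2, the partner of Rplp1 in the stalk, stood at 15946. Before division by length, Rplp1 averaged 42064 normalized counts (annotated length 499 nt) and Rplp2 15372 (964 nt). Each length is that of a single annotated transcript, which may differ from those present in these tumors.

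The lowest members per kb were Rpl3l, the striated muscle form of Rpl3, at 8.20, Rpl32l at 34.0, Rps4l at 99.7 and Rpl24, a large subunit protein at the subunit interface, at 103. Rpl24 read 61.1, 63.4, 82.5, 54.6 and 68.9 normalized counts in PBS tumors 1 to 5 and 68.6, 68.5, 77.4, 76.2 and 75.3 in PIIO-1 tumors 1 to 5. Rps10, named after its values were seen, had a mean of 371 normalized counts, and Rpl13a, known as part of an interferon-gamma translation brake, averaged 1033 ± 57.2 (PBS) and 983 ± 71.4 (PIIO-1) (SD, n = 5). These 3 genes are the only members with more than 50% of the transcript under same-strand exons of another annotated gene: 71.5% of Rpl24 lies under Gm28037, 59.3% of Rpl13a under other genes including Gm45713, and 53.6% of Rps10 under genes including RPS10-NUDT3. Rps10-ps2, an annotated copy that shares 39.1% of the 75-base windows of Rps10, had a mean of 6767 normalized counts. Of all members, 78 share at least 1 such window with another gene and 39 share over 50% of theirs, so counting could split or move their reads. The part of shared sequence and overlap in these levels was not tested.

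**Figure D1:**
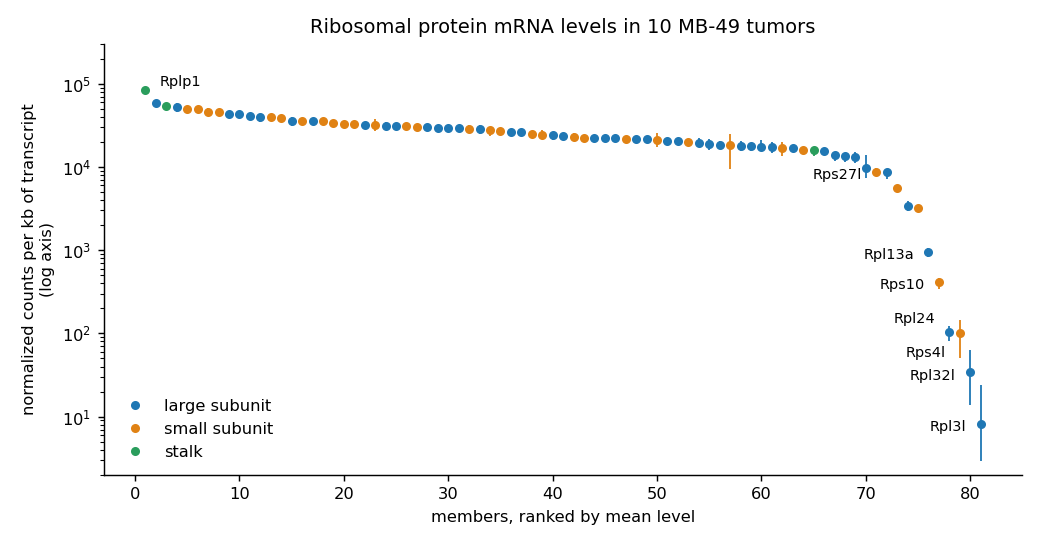
Mean level of each member in normalized counts per kb of annotated transcript (log axis), ranked, with lines from the lowest to the highest of the 10 tumors and colors for subunits. Of the 81 members, 69 lie above 10000, while Rpl3l, Rpl32l, Rps4l, Rpl24, Rps10 and Rpl13a lie at or under 1000.

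Whether PIIO-1 moved ribosomal protein mRNAs was asked by comparing 5 PIIO-1 with 5 PBS tumors on the log2(normalized count + 1) scale. No member passed: limma with Benjamini-Hochberg adjustment called 0 of 81 members and 0% of the 16767 genes tested, and the smallest adjusted p of a member was 0.837. At an unadjusted p under 0.05, limma counted 1 member of 81, where 5.63% of all genes reached it. Groups did not overlap for 0 members, against 0.853% of all genes. The members' median difference, PIIO-1 minus PBS, was 0.020 (59 positive, 22 negative), 0.027 for the large subunit and stalk and 0.015 for the small subunit, beside 0.0027 over all genes; scaled by column total instead, it was -0.013 with 34 of 81 positive, and that of all genes -0.030. Single tumors moved this small median: dropping PBS tumor 4 gave 0.0004 with 41 members positive, and dropping PIIO-1 tumor 5 gave 0.043 with 69 positive. The size of change these data allow was small for most members: for 72 of 81 the 95% interval lay within a 1.25-fold change either way, and for 76 within 1.5-fold.

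Of the small subunit, Rps29, a zinc-binding protein of the head (chr12:69157722-69159186, minus strand, GRCm38), had the smallest p. It read 8973, 6744, 7278, 6721 and 7483 normalized counts in PBS tumors 1 to 5 and 7897, 10030, 9252, 8966 and 8059 in PIIO-1 tumors 1 to 5. PBS tumor 1 was as high as the PIIO-1 tumors, so the groups overlapped. The difference was 0.25 (SE 0.089, 95% interval 0.06 to 0.45), with an unadjusted limma p of 0.0158 and an adjusted p of 0.837. Rps28, near the mRNA exit of the small subunit, averaged 6128 ± 744 (PBS) and 6913 ± 597 (PIIO-1) (difference 0.18, SE 0.088).

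Rps6, the substrate of S6 kinase downstream of mTORC1, was the steadiest member, with an SD of 0.041 on the log2 scale over 10 tumors. Its counts ran from 32925 to 35667 in PBS tumors and from 32318 to 34622 in PIIO-1 tumors, which overlapped (difference -0.03, SE 0.048). Rps4x, the X-linked form of Rps4, and Rpl26, which binds the mRNA of p53, were next, with SDs of 0.051 and 0.046. Rps19, Rps14 and Rps26, small subunit proteins whose loss causes or mimics Diamond-Blackfan anemia, had differences of 0.026 (SE 0.060), -0.001 (SE 0.064) and 0.038 (SE 0.062). Rpsa, also a laminin receptor, had a difference of -0.024 (SE 0.060). Rps12 averaged 16473 ± 2439 (PBS) and 15254 ± 1415 (PIIO-1) (difference -0.10, SE 0.10).

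Of the large subunit, Rpl37a averaged 10494 ± 660 normalized counts (PBS) and 11404 ± 710 (PIIO-1) (difference 0.12, SE 0.058), and Rpl38, known for its part in translating Hox mRNAs, at 6547 ± 599 and 7234 ± 654 (difference 0.14, SE 0.076). Their adjusted p was 0.837 in limma. Rpl5 and Rpl11, which with 5S RNA bind Mdm2 when ribosome assembly fails, had differences of -0.018 (SE 0.065) and -0.004 (SE 0.055). Rpl3, beside the peptidyl transferase center, had 0.005 (SE 0.061), Rpl10, a late-joining protein, 0.020 (SE 0.053), and Rpl22, whose paralog Rpl22l1 it restrains, 0.058 (SE 0.066). Rpl39, which lines the exit tunnel, had 0.10 (SE 0.073) and Rpl41 0.074 (SE 0.077). Rpl29 and Rpl13a both had -0.073, with SEs of 0.086 and 0.064. In the stalk, Rplp0 had 0.008 (SE 0.068), Rplp1 0.010 (SE 0.062) and Rplp2 0.087 (SE 0.067).

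**Figure D2:**
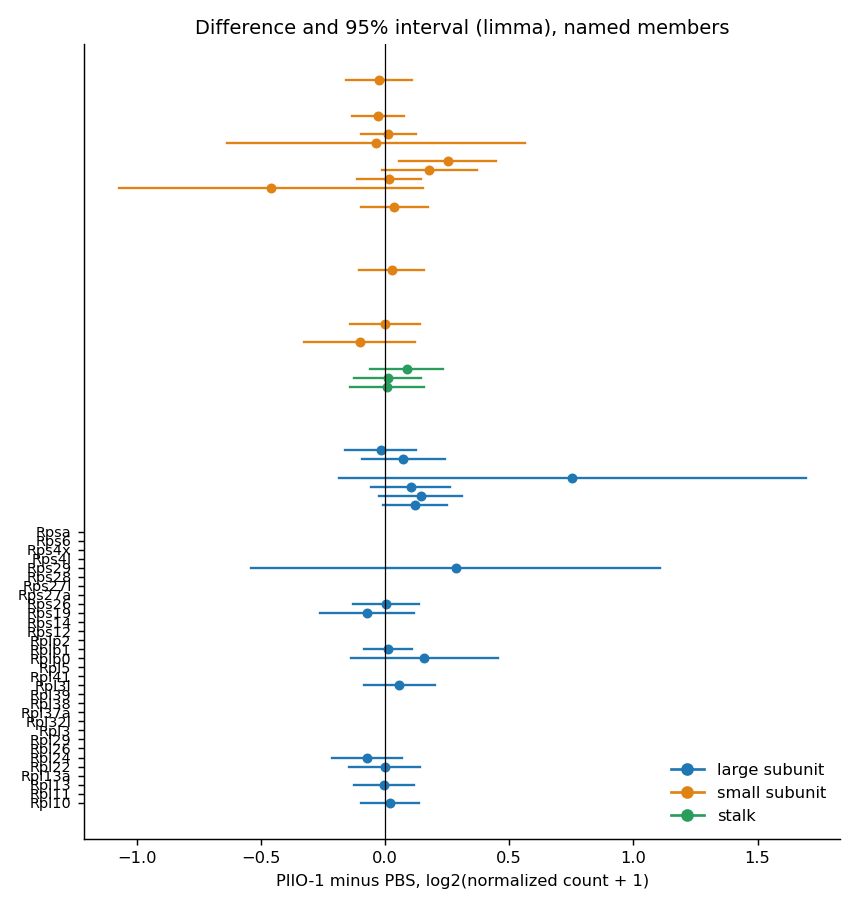
Difference between PIIO-1 and PBS tumors on the log2(normalized count + 1) scale (x axis) with 95% intervals from limma for named members. Intervals and labels both run in order of gene symbol, not of difference. Their spacing is unlike, so an interval cannot be read against the label beside it. The values given here and in the text are the ones to use. Rps29 alone has an interval clear of 0, from 0.06 to 0.45, and its adjusted p is 0.837; the widest intervals are those of the low members Rpl3l, Rpl32l and Rps4l and of Rps27a.

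Rps29, Rps28, Rpl38 and Rpl37a, among the members of smallest p in the higher direction, have short mRNAs, from 364 to 558 nt. Members were then grouped by length, which was not planned beforehand. The 27 shortest include these same genes, so their median is not independent of them. Among the 27 shortest members (345 to 612 nt) the median difference was 0.046 and 23 were positive. It was 0.014 in the middle 27 (614 to 887 nt, 16 of 27 positive) and 0.013 in the longest (899 to 5130 nt, 20 of 27 positive). Single tumors carried much of this: the median of the 27 shortest was 0.015 when PBS tumor 4 was dropped. Dropping PIIO-1 tumor 2 gave 0.020, dropping tumor 3 of that group gave 0.017, and dropping its tumor 5 gave 0.073. Those of the middle and longest members were -0.0094 and -0.0066 when PBS tumor 4 was dropped, and -0.0075 and -0.0047 when PIIO-1 tumor 3 was. The median deviation of the shortest minus that of the longest members ran from -0.059 (PBS tumor 4) to 0.0094 in PBS and from -0.033 to 0.078 (PIIO-1 tumor 2) in PIIO-1 tumors, so the groups overlapped. Other tested genes of the same lengths had medians of 0.027, 0.0095 and 0.0002, and those averaging 1000 normalized counts or more had 0.053, 0.014 and 0.0044. Other short genes thus had a positive median too. Whether fragment size or RNA quality moved with it was not tested. The lengths are annotated ones, and the transcripts present in these tumors may differ.

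**Figure D3:**
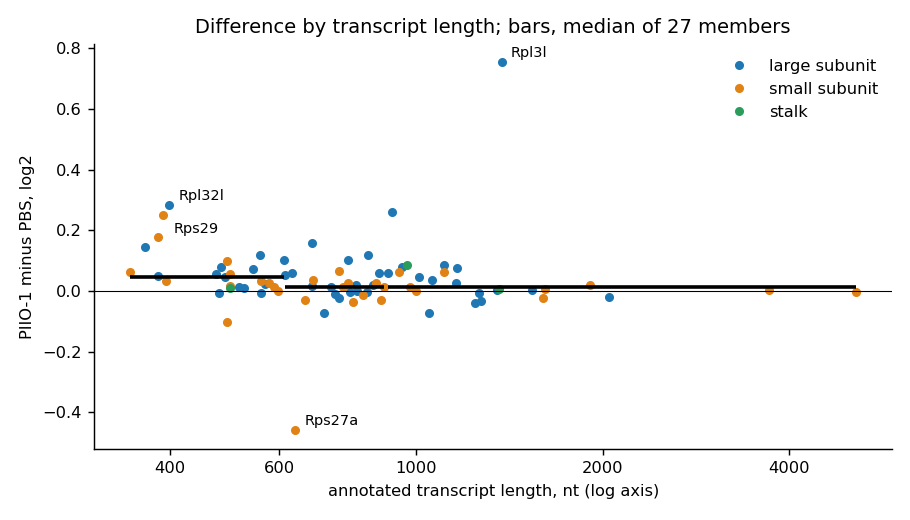
Difference between PIIO-1 and PBS tumors (log2) for each of the 81 members against annotated transcript length (log axis), with black bars at the median of the 27 shortest, 27 middle and 27 longest members. The shortest sit at 0.046, the others at 0.014 and 0.013; Rps27a and Rpl3l lie far from the rest.

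Members varied together from tumor to tumor in both groups. No such count was made for other genes, so whether this is particular to the members was not tested. Above their own mean over the 10 tumors stood 54, 29, 71, 7 and 30 of the 81 members in PBS tumors 1 to 5, and 44, 70, 79, 20 and 15 in PIIO-1 tumors 1 to 5. High tumors (PBS 3, PIIO-1 2 and 3) and low tumors (PBS 4, PIIO-1 4 and 5) were found in both groups. As a share of all normalized counts, the members held 5.53%, 5.47%, 5.69%, 5.26% and 5.38% in PBS and 5.63%, 5.75%, 5.70%, 5.10% and 4.93% in PIIO-1 tumors, or 5.47% ± 0.161 (PBS) and 5.42% ± 0.378 (PIIO-1) (SD, n = 5).

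The low tumors were not alike in other measures. PIIO-1 tumors 4 and 5 had the highest Ptprc (CD45, the common leukocyte antigen), 17239 and 17430 normalized counts against 7928 to 14609 in the other tumors. The summed level of all 4 leukocyte markers ran from 27132 to 42663 in PBS and from 24251 to 50273 in PIIO-1 tumors, with none of the 4 at 0. The 4 globin mRNAs held 0.0745% and 0.180% of the counts in PIIO-1 tumors 4 and 5 and 0.0183% to 0.0629% in the other tumors. Mitochondrially encoded genes held 3.12% in PIIO-1 tumor 5 and 0.986% to 2.22% elsewhere. PBS tumor 4, the lowest by count of members, had the fewest reads, 18843192. Its Ptprc was 12735 normalized counts, its globin share of 0.0183% was the lowest of all tumors, and its mitochondrial share was 1.11%. In PBS tumor 1, with Ptprc at 14609 and a mitochondrial share of 2.22%, 54 members stood above their own mean. The part of these measures in the members' levels was not tested. When both PBS tumor 4 and PIIO-1 tumor 5 were dropped, a choice made after seeing the data, the members' median difference was 0.015, and limma called 0 members.

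**Figure D4:**
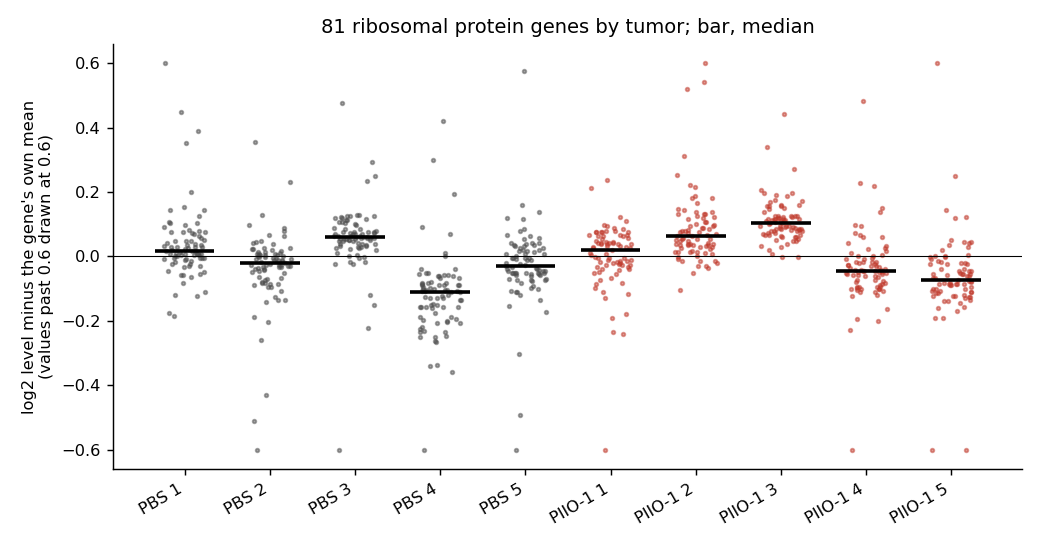
Log2 level of each of the 81 members minus its own mean over 10 tumors (y axis) for every tumor (x axis), PBS in grey and PIIO-1 in red, with a bar at the median. The medians run from -0.11 in PBS tumor 4 to 0.10 in PIIO-1 tumor 3, and both groups hold high and low tumors.

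At high levels the members were steadier than other genes in a description of their spread. The 73 members averaging 5000 normalized counts or more had a median SD of 0.085 on the log2 scale. For 1211 other genes with the same minimum it was 0.11. Above that minimum the sets were not matched in level. Of those 73, 2 had an SD above 0.2, Rps27a (0.555) and Rpl7a (0.294), while 20.5% of the other genes did. Among the 1284 genes at that level, Rps27a had the 15th largest SD and Rpl7a the 147th.

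Rps27a (chr11:29545846-29548109, minus strand) encodes ubiquitin fused to a small subunit protein. It read 14354, 14013, 15259, 14657 and 7798 normalized counts in PBS tumors 1 to 5 and 9268, 15715, 13227, 6226 and 5947 in PIIO-1 tumors 1 to 5. PBS tumor 5 and PIIO-1 tumors 1, 4 and 5 were low and the other 6 tumors high, so low tumors occurred in both groups. The difference was -0.46 (SE 0.28, 95% interval -1.07 to 0.15; limma adjusted p 0.837), and leaving out 1 tumor gave -0.65 (PIIO-1 tumor 2 out) to -0.30 (PIIO-1 tumor 5 out). Gm8430, a processed pseudogene at chr6:122456904-122457374, aligns with 471 bases of the Rps27a coding sequence at 1 mismatch. It read 266, 227, 209, 184 and 226 normalized counts with PBS and 313, 165, 207, 452 and 456 with PIIO-1. PIIO-1 tumors 1, 4 and 5, low for Rps27a, were the highest for Gm8430, whereas PBS tumor 5 was not. Adding the 2 tested copies to Rps27a gave sums of 6574 to 16042 and a difference of -0.42.

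The first 90 coding bases of both are shown because they differ at a single base, in capitals; no 75-base window wholly within this stretch is shared, and the windows that both genes share start after that base.
Rps27a: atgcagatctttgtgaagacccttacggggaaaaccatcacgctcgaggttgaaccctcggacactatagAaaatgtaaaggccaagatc
Gm8430: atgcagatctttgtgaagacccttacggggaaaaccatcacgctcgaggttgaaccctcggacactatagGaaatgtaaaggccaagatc

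Rpl7a (chr2:26910764-26913318, plus strand), a large subunit protein that was named for its spread after its values were seen, read 7610, 7514, 8538, 6740 and 9375 normalized counts in PBS tumors and 7647, 12579, 11757, 7530 and 8899 in PIIO-1 tumors. PIIO-1 tumors 2 and 3 stood above all others, and the remaining PIIO-1 tumors lay within the PBS range. The difference was 0.26 (SE 0.15; limma adjusted p 0.837). Gm17828, a processed pseudogene at chr9:72292542-72293340 (minus strand), aligns with 789 bases of the Rpl7a coding sequence at 11 mismatches. It read 106, 135, 143, 122 and 111 normalized counts with PBS and 81.6, 27.4, 53.3, 61.4 and 63.5 with PIIO-1, which did not overlap. Its difference was -1.16 (SE 0.25), with a limma adjusted p of 0.837, and edgeR did not call it. DESeq2 on the recovered reads gave it no adjusted p at its default filtering of low genes and 0.0183 under both other filtering settings, which were run after the default count had been seen. PIIO-1 tumor 2, the highest for Rpl7a, was the lowest for Gm17828. The 10 tested copies of Rpl7a summed to 1433 to 2035 normalized counts, and with them the difference of Rpl7a was 0.20. Whether reads moved between these genes was not tested.

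A 90-base coding stretch of Rpl7a and its copy follows, chosen to show 4 of the 11 mismatches, in capitals.
Rpl7a: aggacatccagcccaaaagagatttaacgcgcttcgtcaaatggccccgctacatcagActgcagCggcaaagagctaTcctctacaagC
Gm17828: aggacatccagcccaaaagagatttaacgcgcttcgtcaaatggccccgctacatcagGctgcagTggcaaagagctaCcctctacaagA

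**Figure D5:**
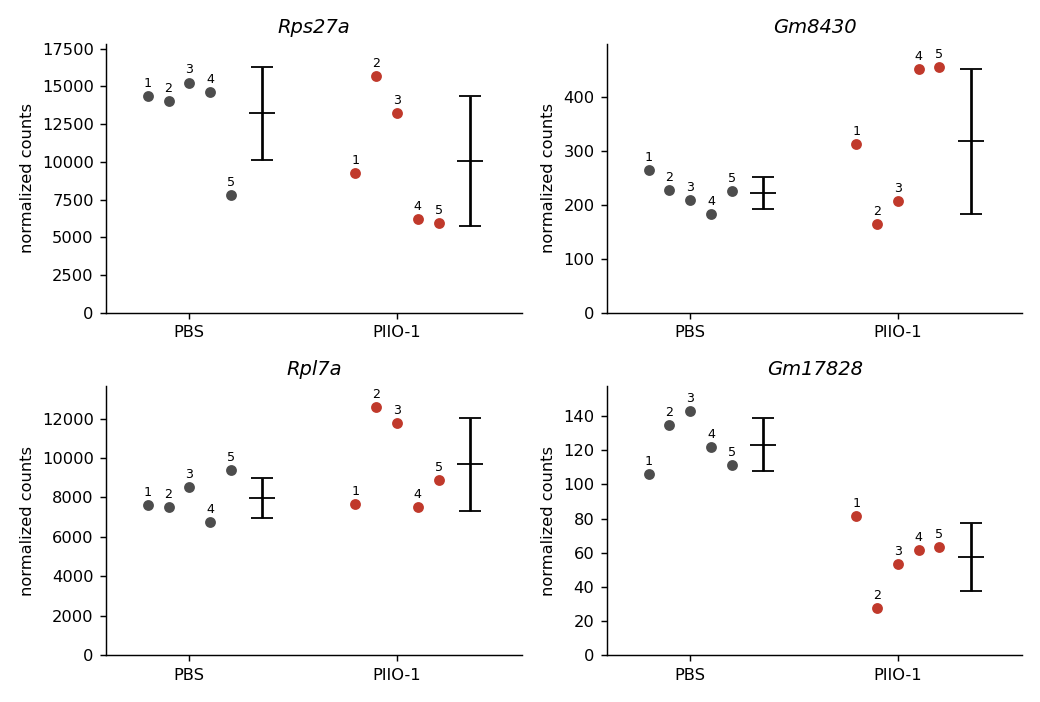
Normalized counts of Rps27a, Rpl7a and 1 processed pseudogene copy of each in every tumor (points, numbered by tumor), with mean and SD of the 5 tumors of each group beside them. Rps27a and Rpl7a overlap between the groups, and Gm17828 does not, with 106 to 143 in PBS and 27.4 to 81.6 in PIIO-1 tumors.

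Rps3a1, Fau and Rack1, outside the symbol pattern, gave no call. Rps3a1 averaged 25845 ± 689 normalized counts (PBS) and 26508 ± 856 (PIIO-1) (difference 0.036, SE 0.046). Fau, which encodes a ubiquitin-like protein fused to a small subunit protein, had 0.10 (SE 0.067), and Rack1, the signaling scaffold on the small subunit, -0.025 (SE 0.065). Of the paralogs, Rpl22l1 stood at 1427 ± 132 and 1435 ± 161, Rpl7l1 at 2697 ± 29.5 and 2763 ± 128, and Rps27l, a p53 target, at 4319 ± 337 and 4362 ± 205. Rpl36al stood at 56.3 ± 10.2 and 58.8 ± 9.20. Rpl3l read 15.3, 6.83, 4.08, 4.68 and 8.61 with PBS and 7.96, 8.81, 10.1, 13.8 and 32.7 with PIIO-1; 3 reads are worth 2.45 to 4.68 normalized counts, so PBS tumors 3 and 4 held few reads and PIIO-1 tumor 5 the most. Of 150 symbols marked as ribosomal protein pseudogenes (-ps), 95 were tested, 0 were called by limma and 6 (6.32%) had an unadjusted p under 0.05, near the 5.63% of all genes.

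Genes that make, chaperone or regulate ribosomes were read beside the members. limma called 0 genes in each of 7 lists. TOP mRNAs of translation factors had a median difference of -0.002 (22 tested, 11 positive), and mTORC1, Myc and TOP regulators -0.0008 (24 tested, 12 positive), among them Yy1, a transcription factor, at 0.081 (SE 0.039) and Larp1, the TOP mRNA binding protein, at -0.080 (SE 0.044). For rRNA synthesis and processing the median was -0.033, with 29 of 42 negative. In that list Nolc1, a nucleolar chaperone, averaged 4866 ± 253 (PBS) and 4465 ± 108 (PIIO-1) (-0.12, SE 0.044), and Nop2, an rRNA methyltransferase, at 2685 ± 152 and 2440 ± 127 (-0.14, SE 0.052). Ribosomal stress and p53 genes had a median of -0.031 (17 of 21 tested, 11 negative), with Bax, a death effector, at -0.12 (SE 0.054) and Ccng1, a p53 target, at -0.19 (SE 0.098). The list named for chaperones and importers of ribosomal proteins had 0.011 (10 tested), with Aamp at 0.074 (SE 0.039). The low gene Nacad, placed in that list without a tested role there, was at 0.70 (SE 0.26). The snoRNA host RNAs had -0.010 (12 tested), with Snhg15 at -0.16 (SE 0.062) and Snhg8 at 0.13 (SE 0.089). All 13 mitochondrially encoded mRNAs were positive, at a median of 0.28, with mt-Nd3 at 0.46 (SE 0.29) and mt-Atp6 at 0.47 (SE 0.41); without PIIO-1 tumor 5 that median was 0.027. Leaving out 1 tumor moved the other medians too: that of rRNA synthesis and processing lay between -0.050 (PBS tumor 5 dropped) and -0.015 (PIIO-1 tumor 4 dropped), and that of stress and p53 genes between -0.060 (PIIO-1 tumor 1 dropped) and -0.011 (PIIO-1 tumor 5 dropped). The medians of the chaperones (-0.012 to 0.031), snoRNA hosts (-0.048 to 0.0058), TOP factors (-0.025 to 0.025) and mTORC1 list (-0.010 to 0.011) changed sign.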

How the data were processed

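Bulk RNA libraries of 10 tumors (5 PIIO-1, 5 PBS) were analysed. The authors deposited 1 table of normalized counts (a signal unit, at or above 0); HISAT2, featureCounts, DESeq2 and build GRCm38 are named in the submitters' processing notes, with versions, annotation and strand setting not given in the sources used here. Without the strand setting, reads of a gene and an antisense partner cannot be told apart. Each column was divided by its smallest step (0.817 to 1.56 normalized counts per read), and 100% of values came out as whole reads within 0.001 read. Groups come from the treatment label, replicate numbers from the titles.

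Genes with a mean of at least 10 (16767) were tested as log2(value + 1), which understates changes of low genes, with limma 3.58.1 (R 4.3.3, intensity trend, two-sided, Benjamini-Hochberg, threshold 0.05), a step tested on simulated data. Alternatives were other pseudocounts, filters and scalings, no trend, array weights, a replicate block, each tumor left out, and edgeR 4.0.16 and DESeq2 1.42.0 on the recovered reads. DESeq2 was run first with default independent filtering; 2 other filtering settings were added after its count had been seen, as was leaving out PIIO-1 tumor 5 and PBS tumor 4. Transcript lengths, overlaps and 75-base shared windows come from GENCODE M21 (GRCm38), promoters from RefSeq. Members and lists were chosen with earlier results of these data known. Genes named are a panel of 17 members, the 5 members of smallest p in each direction, the 4 highest and 4 lowest per kb, the 3 with the largest and smallest SD, partners and paralogs, and 2 genes per list; Rps10, Rpl7a, Gm8430, Gm17828 and Rps10-ps2 were chosen after their values were seen. Some genes that this rule names are left out of the text. The grouping of members by transcript length was not planned beforehand.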

Additional observations from a re-analysis of the deposited data

Results flagged for a closer look

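In 4 of 162 groups of 5 tumors (81 members, 2 groups each) 1 tumor lay far from the other 4 by Dixon's criterion of 0.71; chance gives about 1 in 20 groups. Rps27a was lowest in PBS tumor 5, at 7798 normalized counts against 14013 to 15259 in the other PBS tumors. Rpl13a was lowest in PIIO-1 tumor 4, at 858 against 999 to 1041. Rps4l was lowest in PIIO-1 tumor 1, at 39.8 against 80.4 to 90.03. Rpl3l was highest in PIIO-1 tumor 5, at 32.7 against 7.96 to 13.8.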

How the results depend on the processing

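Members called stayed at 0 in all 26 alternatives. Over all genes, limma and edgeR called 0 genes in every alternative, edgeR with 975 genes at an unadjusted p under 0.05. DESeq2 called 1 gene (Trib1, adjusted p 0.0457) with its default filtering and 3 genes (Ifi208, Gm17828 and Trib1) under both settings added later; the default leaves Ifi208 and Gm17828 without an adjusted p. The smallest adjusted p of a member was 0.498, without PIIO-1 tumor 1. The members' median difference ran from 0.0004 (without PBS tumor 4) to 0.043 (without PIIO-1 tumor 5) when 1 tumor was left out. Scaled by column total it was -0.013 with 34 members positive, where the median of all genes moved to -0.030. The members' median stayed 0.017 above that of all genes under every scaling. Rescaling shifts all genes of a tumor nearly alike, so this gap was fixed in advance and is no check. Without the 7 members that stand apart in level or annotation, the members' median difference was 0.019. Of 52 named genes, 25 had a difference over 1 SE and none of these changed sign; 17 of the other 27 did in at least 1 alternative. The replicate block gave 0 genes called, 885 at an unadjusted p under 0.05, and 0 members. Replicate numbers did not pair the samples: correlations of same-numbered tumors ran from -0.21 to 0.095. Depth limits the low members, Rpl3l and Rpl32l above all.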
